A study of Mus musculus with 6 samples.

Results

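Cyclins and the kinases they activate were compared between fetal and adult mammary cells in 10 genes, namely the D-type cyclins Ccnd1, Ccnd2 and Ccnd3 with their kinase partner Cdk6, the E-type cyclins Ccne1 and Ccne2, and the cyclins Ccna2, Ccnb1 and Ccnb2 with their partner Cdk1. Members were found as the non-control array probes whose transcript accession belonged to 1 of these genes in RefSeq, so probes of these genes under other accessions may be missing. All 10 genes were represented, by 16 probes, among 20660 genes that could be named and 55681 probes on the array. Fetal cells were EpCAM++CD49f+ cells from the mammary rudiments of female C57Bl6J embryos at E18.5, and adult basal cells were EpCAM+CD49f+ cells from glands of C57Bl6J females aged 8–12 wk. Each group had 3 biological replicates, with 1 one-color Agilent array for each. Both groups were sorted by flow cytometry after removal of endothelial (CD31+) and blood (CD45+ or Ter119+) cells, and BP-1+ stromal cells were removed from the adult samples only. Digestion was short for fetal and overnight for adult glands. Age, gate, BP-1 depletion and digestion therefore differed together, and their parts in any difference cannot be told apart. RNA came from whole sorted populations, in which a higher share of dividing cells and more RNA per dividing cell cannot be told apart either.

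A cyclin-dependent kinase (CDK) is inactive until a cyclin binds it, and successive waves of cyclins carry a cell through its division cycle. D-type cyclins rise with growth factor signals and act with Cdk4 or Cdk6 on the retinoblastoma protein in G1, and E-type cyclins act with Cdk2 at entry into S phase. Cyclin A2 serves S phase and G2, and the B-type cyclins with Cdk1 drive mitosis. In the mammary gland, cyclin D1 is best known for its need in the growth of lobules and alveoli in pregnancy.

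Most of these genes had far higher signals in fetal cells, and none was called higher in adult basal cells. Signal is given as log2 of the background-subtracted spot brightness after quantile normalization, and a difference between groups as a log2 fold change of fetal over adult basal cells, so that 1 unit is a 2-fold difference. A probe was called when limma's moderated test gave a Holm-adjusted p of at most 0.05 over all 20448 probes tested, provided that the difference was at least 2-fold. A gene was judged by its brightest tested probe, here its main probe. By this rule Ccnd1, Ccne1, Ccna2, Ccnb1, Ccnb2 and Cdk1 (6 of 9 genes tested) were higher in fetal cells, against 5.92% of all tested probes. None of the 9 was higher in adult basal cells, against 5.18% of all tested probes. All 9 log2 fold changes were above 0, so none could have an unadjusted p of at most 0.05 in that direction (0 of 9). The share of all tested probes at that limit was not counted. Cdk6 was added under Benjamini-Hochberg adjustment at the same 2-fold limit, which made 7 genes. By that rule 3267 of the 20448 tested probes were higher in fetal cells, and 30.0% were called in either direction. For all 9 tested genes, every fetal array lay above every adult basal array, as it did for 34.1% of all tested probes. Of the 9, Cdk6 was bright enough to be tested only through its fetal signal. Ccne2 was too dim to be tested, and its groups overlapped. The median log2 fold change of the 9 genes was 5.34, with a range of 0.21 to 6.77, beside a median of -0.03 over all tested probes. Cdk1 and Ccnd1 ranked 25 and 29 of 15734 genes by this measure.

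**Figure D1:**
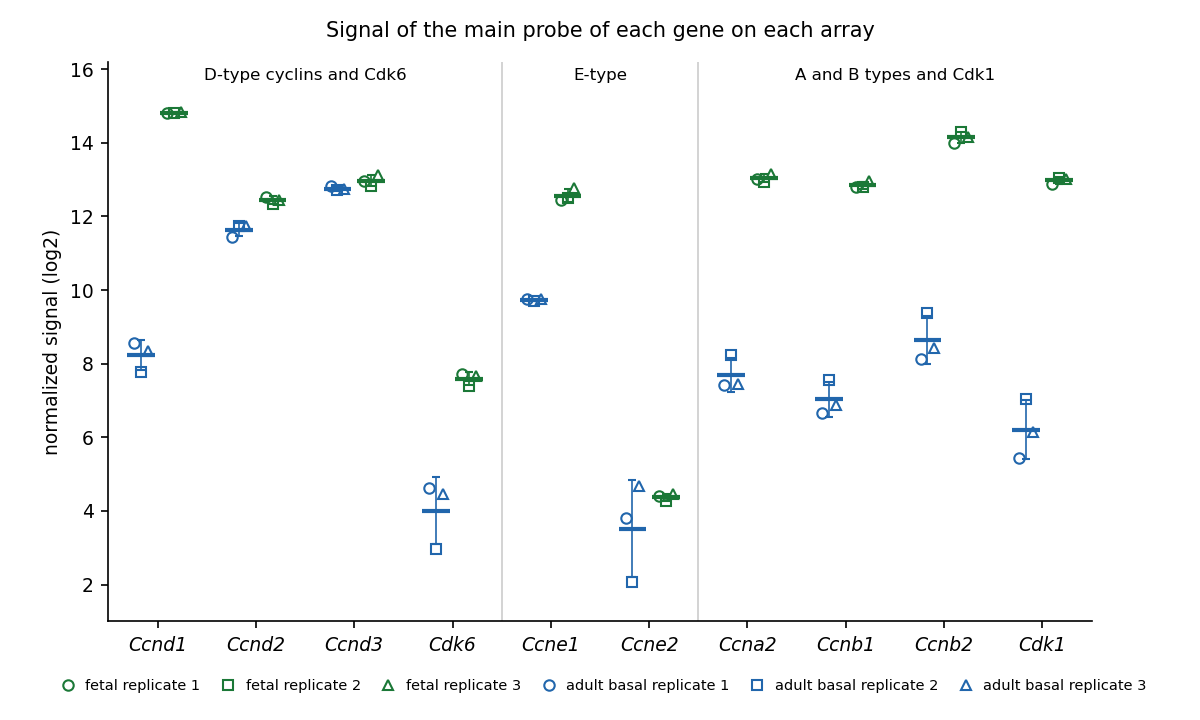
Normalized log2 signal (vertical axis) of the main probe of each of the 10 genes on the 6 arrays, with fetal arrays in green and adult basal arrays in blue. Symbols show replicates 1 to 3, thick lines the group means and error bars 1 SD. Fetal points lie above all adult basal points for every gene but Ccne2, by a wide margin for Ccnd1, Ccna2, Ccnb1, Ccnb2 and Cdk1 and a narrow one for Ccnd3.

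Of the G1 genes, the cyclin that differed most was Ccnd1, the D-type cyclin most tied to epithelial growth. Its probe A_66_P111562 gave 8.57, 7.78 and 8.35 on the adult basal arrays (replicates 1 to 3 here and below) and 14.81, 14.82 and 14.82 on the fetal arrays. The fetal replicates were almost equal, and the lowest of them was over 6 units above the highest adult value. Its log2 fold change was 6.59 (SE 0.20, Holm-adjusted p = 7.9e-05, n = 3 per group), a 96.1-fold difference with a 95% interval from 69.6 to 132.5.

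Ccnd2 and Ccnd3, the other D-type cyclins, did not pass the same test. Signals of Ccnd2 (probe A_52_P53906) were 11.43, 11.74 and 11.75 in adult basal cells and 12.54, 12.34 and 12.46 in fetal cells. These groups did not overlap, but the log2 fold change of 0.81 was under the 2-fold limit (1.75-fold, 95% interval 1.43 to 2.15). Its adjusted p was 1 by Holm's method and 0.00095 by Benjamini-Hochberg. For Ccnd3, the main probe A_55_P2041075 gave 12.82, 12.71 and 12.75 in adult basal and 12.95, 12.83 and 13.12 in fetal cells, with a log2 fold change of 0.21 (95% interval -0.05 to 0.47, Holm-adjusted p = 1). Its lowest fetal and highest adult values were almost equal, and on the second Ccnd3 probe, A_51_P238448, the groups overlapped (log2 fold change 0.11, 95% interval -0.28 to 0.50). On both probes of Ccnd3 a 2-fold difference in either direction lay outside the interval. The shift from adult basal to fetal cells in Ccnd1 exceeded that of Ccnd2 by 5.78 and that of Ccnd3 by 6.38 log2 units, and the shift of Ccnd2 exceeded that of Ccnd3 by 0.60. These differences were taken within each array. The groups did not overlap in any of the 3, and a 2-sided exact permutation test gave p = 0.1 for each (0.1 after Benjamini-Hochberg adjustment), the smallest value that 3 against 3 arrays allow.

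Cdk6, a kinase partner of the D-type cyclins, was dim. The 1 probe matched to it, A_55_P2079630, gave 4.62, 2.96 and 4.45 in adult basal cells and 7.71, 7.39 and 7.66 in fetal cells. All fetal arrays were above all adult arrays, but adult basal replicate 2 lay under its group and was not well above background by the flag of the scanner software, whereas the other 2 adult arrays were. The log2 fold change was 3.58 (SE 0.41), with an adjusted p of 0.70 by Holm's method and 0.0002 by Benjamini-Hochberg. Without adult basal replicate 2 the log2 fold change was 3.09 and the probe was called (Holm-adjusted p = 0.0035), and it was also called when an offset of 16 was added before log2 (2.65, Holm-adjusted p = 0.027). On all 3 probes of Cdk4, the other kinase of this step, the fetal arrays lay above the adult ones, and its main probe gave 14.69, 14.49 and 14.36 in adult basal and 15.60, 15.72 and 15.78 in fetal cells. Its log2 fold change of 1.19 (SE 0.12) had an adjusted p of 0.34 by Holm's method, so it was not called, and 0.00011 by Benjamini-Hochberg. The other Cdk4 probes gave 1.06 and 1.43, with adjusted p of 0.70 and 0.37 by Holm's method and 0.0002 and 0.00012 by Benjamini-Hochberg.

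The E-type cyclin Ccne1, which carries cells into S phase with Cdk2, was called on both of its probes. The main probe A_51_P408946 gave 9.75, 9.71 and 9.76 in adult basal and 12.44, 12.49 and 12.76 in fetal cells, or a log2 fold change of 2.82 (SE 0.12, Holm-adjusted p = 0.00076, 7.07-fold). The dimmer probe A_66_P125327 gave a log2 fold change of 3.30 (SE 0.17, Holm-adjusted p = 0.0040), with 2 of 3 adult basal arrays well above background. The 95% interval of the main probe, 2.55 to 3.10, lay below those of the other 5 called genes, and its adult basal signal was the most even of the 6 (SD 0.03, n = 3). Its close relative Ccne2 stayed under the low-signal limit (5.95 log2) in both groups and was not tested. Probe A_65_P10671 for Ccne2 gave 3.82, 2.08 and 4.68 in adult basal and 4.40, 4.26 and 4.46 in fetal cells, so that the groups overlapped. When no low-signal filter was used, its log2 fold change was 0.85 with a Holm-adjusted p of 1. The kinase partner of both, Cdk2, had a log2 fold change of 0.82 (SE 0.12, Holm-adjusted p = 1).

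The cyclins of S phase and mitosis were all called higher in fetal cells, as was Cdk1. Ccna2 (cyclin A2, probe A_51_P481920) gave 7.43, 8.23 and 7.44 in adult basal cells and 13.01, 12.94 and 13.15 in fetal cells, which was 40.4-fold higher (log2 fold change 5.34, SE 0.22, Holm-adjusted p = 0.00078). Ccnb1 (cyclin B1, main probe A_55_P2065671) gave 6.66, 7.55 and 6.87 against 12.79, 12.79 and 12.96, a log2 fold change of 5.82 (SE 0.22, Holm-adjusted p = 0.00045) or 56.5-fold. In both genes adult basal replicate 2 was the highest of its group, while the fetal arrays lay close together. The other Ccnb1 probes, A_55_P1952256 and A_55_P2128668, were called with log2 fold changes of 5.13 and 4.28.

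Ccnb2 (cyclin B2, probe A_51_P457528) gave 8.13, 9.38 and 8.42 in adult basal cells and 13.99, 14.28 and 14.16 in fetal cells. This was a 45.3-fold difference with a 95% interval from 27.7 to 74.0 (SE of the log2 value 0.30, Holm-adjusted p = 0.0054). Adult basal replicate 2 again stood above its group, and the adult SD of 0.65 was larger than that of Ccna2 (0.46) or Ccnb1 (0.47). Cdk1, the kinase of mitotic entry, had the largest fold change of the 9 genes tested, with an interval that overlapped that of Ccnd1. The order of these genes turned under 6 alternatives, and averaging over probes, for example, gave 6.59 for Ccnd1 and 4.63 for Cdk1. The main Cdk1 probe A_55_P2048588 gave 5.43, 7.05 and 6.15 in adult basal cells and 12.88, 13.03 and 13.02 in fetal cells. The log2 fold change was 6.77 (SE 0.36, Holm-adjusted p = 0.0047), or 109.1-fold with an interval from 60.4 to 197.1. Adult basal replicate 2 was the highest of its group here too, and no adult value came within 5 units of a fetal one.

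The 3 Cdk1 probes disagreed in size. Probe A_55_P2016652 gave a log2 fold change of 6.17 (SE 0.26, Holm-adjusted p = 0.00085), with adult signals of 4.90, 4.15 and 3.82 of which 2 were well above background. Probe A_55_P2016647 gave 5.92, 5.57 and 5.71 in adult basal and 6.93, 6.54 and 6.59 in fetal cells, with a log2 fold change of 0.96 (SE 0.15, Holm-adjusted p = 1). The groups did not overlap on any of the 3 probes, and the mean of the probes gave a log2 fold change of 4.63, which was still called. Ccna2, Ccnb1, Ccnd1 and Ccne1 kept their calls under all 18 alternatives run, but Cdk1 and Ccnb2 did not. Leaving out adult basal replicate 3 or any of the fetal arrays took their Holm-adjusted p to between 0.059 and 0.094, with log2 fold changes of 6.71 to 6.85 for Cdk1 and 5.39 to 5.60 for Ccnb2. Without the low-signal filter limma's Holm-adjusted p was 0.055 for Cdk1 and 0.062 for Ccnb2, and with a variance trend and robust estimation Cdk1 had an adjusted p of 0.065.

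**Figure D2:**
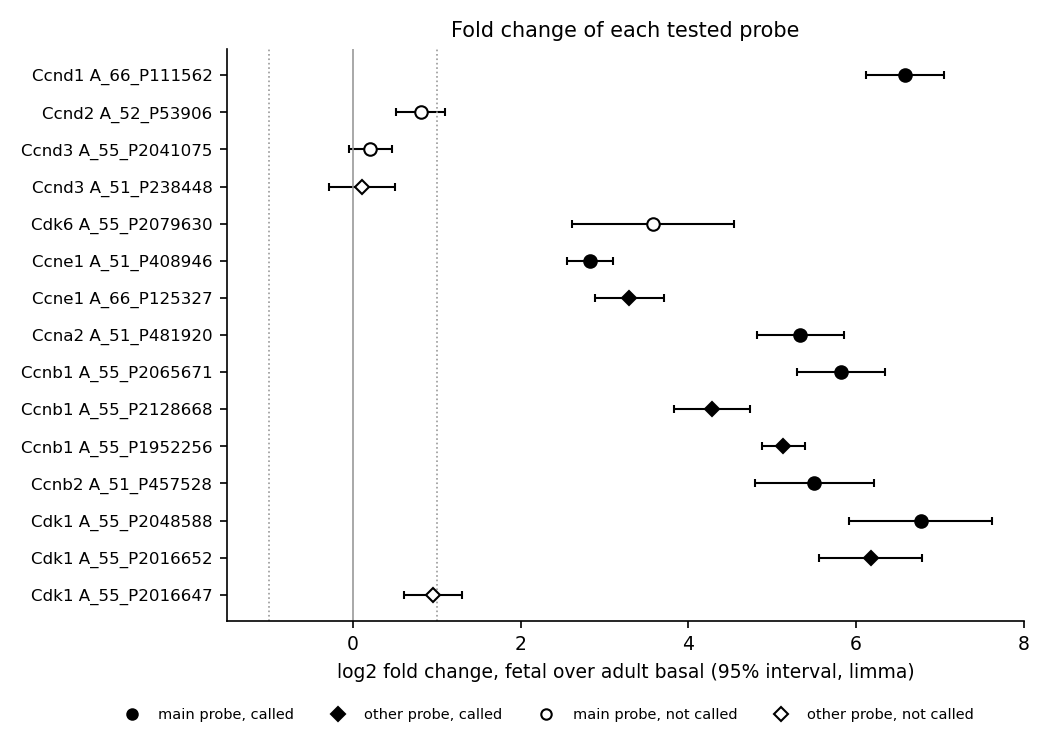
Log2 fold change of fetal over adult basal cells (horizontal axis) for the 15 tested probes of 9 genes, with 95% intervals from limma. Circles are main probes and diamonds other probes, filled where called, and dotted lines mark a 2-fold difference in either direction. The 10 filled probes lie between 2.82 and 6.77, while the probes of Ccnd2 and Ccnd3 and Cdk1 probe A_55_P2016647 lie between 0.11 and 0.96.

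Promoter sequences of Ccnb1, Ccnb2 and Cdk1 are shown because these 3 mitotic genes moved together and B-type cyclin promoters are textbook cases of CCAAT boxes, which bind NF-Y, and of the cell cycle homology region (CHR), which binds the MuvB complexes. Each sequence is the 250 bases before the RefSeq start in GRCm38.p6, read 5′ to 3′ on the strand of the gene, which is the minus strand for all 3. The positions are chr13:100786487-100786736 for Ccnb1, chr9:70421555-70421804 for Ccnb2 and chr10:69352913-69353162 for Cdk1. Capitals mark CCAAT on either strand (ATTGG on the strand shown), TTTGAA (the letters of a CHR) and TTTCGCGC (the letters of an E2F site). These are matches of letters only, and whether any of them is a working site was not tested.
Ccnb1: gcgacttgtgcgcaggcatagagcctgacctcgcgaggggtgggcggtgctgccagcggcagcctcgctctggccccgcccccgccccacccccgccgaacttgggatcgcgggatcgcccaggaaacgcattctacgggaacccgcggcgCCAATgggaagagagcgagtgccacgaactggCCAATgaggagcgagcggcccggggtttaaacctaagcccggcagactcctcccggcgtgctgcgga
Ccnb2: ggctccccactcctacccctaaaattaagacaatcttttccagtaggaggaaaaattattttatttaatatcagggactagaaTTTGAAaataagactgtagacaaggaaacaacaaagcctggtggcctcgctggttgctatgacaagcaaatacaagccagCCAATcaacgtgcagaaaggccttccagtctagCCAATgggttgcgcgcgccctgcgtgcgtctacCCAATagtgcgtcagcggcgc
Cdk1: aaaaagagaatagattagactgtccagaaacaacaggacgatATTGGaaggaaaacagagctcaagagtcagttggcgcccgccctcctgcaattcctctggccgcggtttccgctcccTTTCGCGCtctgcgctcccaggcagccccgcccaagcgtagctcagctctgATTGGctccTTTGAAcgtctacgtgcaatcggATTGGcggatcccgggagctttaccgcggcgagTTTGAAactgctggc

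The first base of each match is counted here from the start of the gene. Ccnb1 had CCAAT 99 and 67 bases before the start, and in this window neither TTTGAA nor the E2F letters. Bases past the start were not searched. Ccnb2 had CCAAT at 87, 54 and 21 bases and TTTGAA at 167 bases. Cdk1 had CCAAT at 208, 80 and 48 bases, TTTGAA at 71 and 15 bases, and TTTCGCGC at 131 bases. Among 32851 RefSeq promoters of this length, 33.8% held CCAAT, 5252 promoters held TTTGAA, 5.55% held both, and 0.654% held the letters TTTGGCGC or TTTCGCGC, each searched on both strands. All 3 promoters held a pair of CCAAT boxes on 1 strand spaced 32 or 33 bases apart, which 0.42% (138) of all promoters did. This spacing was looked for after the sequences had been seen and is a description only. In the same window neither Ccne1 nor Cdk6 had any of these letters. Of the pair of Ccnd3 promoters, one had none and the other had a CCAAT at 108 bases. Ccna2 moved with Ccnb1, Ccnb2 and Cdk1, but the promoter set used here held no sequence for it. The set held none for Ccnd1, Ccnd2 and Ccne2 either.

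Over the 6 called genes, adult basal replicate 2 was the highest of its group in 4 (Ccna2, Ccnb1, Ccnb2 and Cdk1) and the lowest in the others (Ccnd1 and Ccne1), and lay 0.36 log2 units above the group mean on average. Adult basal replicate 1 was the lowest in 4, at -0.26 from the group mean. The fetal arrays lay between -0.08 and 0.08, with replicate 3 the highest in 4 of 6. Mki67, a marker of dividing cells, had the same order in adult basal cells as Ccna2, Ccnb1, Ccnb2 and Cdk1, with 7.60, 9.60 and 8.83 against 14.74, 14.71 and 14.53 in fetal cells. This order was not general, since over 20 genes of S phase and mitosis adult basal replicate 2 was the highest of its group in 7 and the lowest in 9, Pcna among the latter (13.42, 13.19 and 13.38). The part of adult basal replicate 2 in the sizes was measured by leaving it out, which gave log2 fold changes of 5.61 for Ccna2, 6.09 for Ccnb1, 5.87 for Ccnb2 and 7.21 for Cdk1, all larger than with it, and 6.36 for Ccnd1.

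Both groups lay on both slides, so the difference could be taken within each slide. Slide 1 held adult basal replicates 1 and 3 and fetal replicate 1, and slide 2 held adult basal replicate 2 and fetal replicates 2 and 3. For Cdk1 the difference was 7.09 within slide 1 and 5.98 within slide 2. For Ccnd1 it was 6.35 and 7.04, for Ccna2 5.58 and 4.82, for Ccnb1 6.03 and 5.32, for Ccnb2 5.71 and 4.85, and for Ccne1 2.68 and 2.92. All 6 called genes were thus higher in fetal cells on both slides, and all 6 were also called when the fit held slide as a term.

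**Figure D3:**
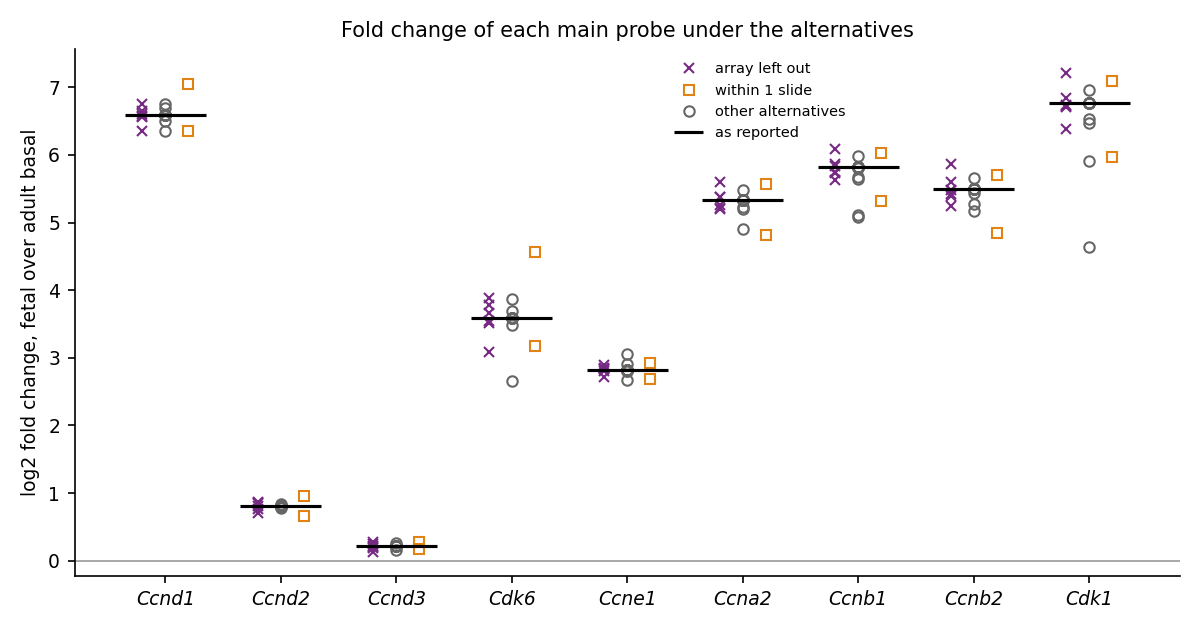
Log2 fold change of fetal over adult basal cells (vertical axis) of the main probe of each tested gene as reported (black line), with each array left out (crosses), within 1 slide (squares) and under the other alternatives (circles). Every point lies above 0, and the widest spreads are those of Cdk1, whose mean over probes is 4.63, and Cdk6.

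Over all probes, 5.92% were called higher in fetal cells and 5.18% in adult basal cells. Of 17 tested among 20 other cyclins and their relatives, 2 (11.8%) were higher in fetal cells and 1 (5.88%) in adult basal cells, with a median log2 fold change of -0.09. Those higher in fetal cells were Ccno, an atypical cyclin of multiciliated cells, with 2.28 (SE 0.14), and Ccnf, an F-box protein of a ubiquitin ligase, with 1.88 (SE 0.13). Higher in adult basal cells was Cables1, which links CDKs to other kinases, at -1.91 (SE 0.14). Among 17 other CDKs, none was called higher in fetal cells (0 with limma and Holm adjustment, 3 with Benjamini-Hochberg) and 1 was higher in adult basal cells, again with a median of -0.09. That one was Cdk18, a kinase of the PCTAIRE group, which fell by 1.65 on the log2 scale in fetal cells (SE 0.11, Holm-adjusted p = 0.022).

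CDK inhibitors went both ways. Of 6 tested, 2 were higher in fetal and 1 in adult basal cells, with a median log2 fold change of 1.05. Cdkn1c, the imprinted inhibitor p57, gave 8.46, 8.03 and 8.43 in adult basal cells and 14.24, 14.33 and 14.36 in fetal cells. This was a 64.1-fold difference (SE of the log2 value 0.14, Holm-adjusted p = 1.2e-05), larger than that of Ccnb1 and smaller than that of Ccnd1. Cdkn2b, the inhibitor p15 of Cdk4 and Cdk6, had a log2 fold change of 3.40 (SE 0.14) on its main probe. The other Cdkn2b probe gave 2.11 (SE 0.16, Holm-adjusted p = 0.057) and was not called. Cdkn1a, the p53 target p21, was higher in adult basal cells, with 12.48, 12.41 and 12.67 against 10.62, 10.20 and 10.35 (log2 fold change -2.13, SE 0.14, Holm-adjusted p = 0.019), on 1 of its 2 probes. Cdkn1b (p27) had -1.51, with an adjusted p of 0.99 by Holm's method and 0.00026 by Benjamini-Hochberg. Cdkn2a was under the low-signal limit by its group means and was not tested. Its brighter probe gave 2.44, 4.31 and 1.74 in adult basal and 5.49, 5.29 and 6.17 in fetal cells. On its other probe the groups overlapped, and no array was well above background.

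Direct regulators of cyclin-CDK complexes, the phosphatases, kinases and ubiquitin ligase subunits that switch them on and off, were higher in fetal cells for 8 of 16 genes and in adult basal cells for none (0 with limma and Holm adjustment, 1 with Benjamini-Hochberg). Their median log2 fold change was 1.41. Cdc20, which directs the destruction of B-type cyclins, had 5.08 (SE 0.24), Plk1, a mitotic kinase, 4.71 (SE 0.22), and Cdc25c, which removes the inhibitory phosphates of Cdk1, 4.32 (SE 0.24). On these 3 probes all fetal arrays lay above all adult basal arrays, and adult basal replicate 2 was the highest of its group, as in 8 of the 16 genes (it was the lowest in 5).

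The RB and E2F genes, which stand between the G1 cyclins and the S phase genes, were called for 4 of 19, all higher in fetal cells, with a median of 0.12. They included E2f2 (4.31, SE 0.14) and E2f8 (3.97, SE 0.20), an activating and a repressing E2F factor, and Rbl1, the RB relative p107 (3.00, SE 0.10). The other Rbl1 probe gave 2.54 (SE 0.32) and was not called. Rb1 itself had -0.49 (Holm-adjusted p = 1) and E2f1 had 2.98 (Holm-adjusted p = 0.088). Probes disagreed for 4 further genes, E2f7, Foxm1, Mybl2 and Tfdp2, which were named after their values were seen. Their main probes gave 0.07, 0.06, 1.16 and 0.33 and were not called, whereas their other probes were called, with 6.13, 2.86, 2.76 and 2.11. Counted by any called probe, 8 of the 19 genes were higher in fetal cells, against 6.78% of all 15734 genes tested. Genes of S phase and mitosis were higher in fetal cells for 18 of 20, with a median of 4.57 and none higher in adult basal cells (0 with limma under Holm or Benjamini-Hochberg adjustment). Birc5 (survivin) had a log2 fold change of 6.20 (SE 0.22), Mki67 5.98 (SE 0.45, Holm-adjusted p = 0.044), Rrm2, a subunit of ribonucleotide reductase, 5.96 (SE 0.15), and Pcna, the sliding clamp of DNA polymerase, 1.92 (SE 0.11).

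**Figure D4:**
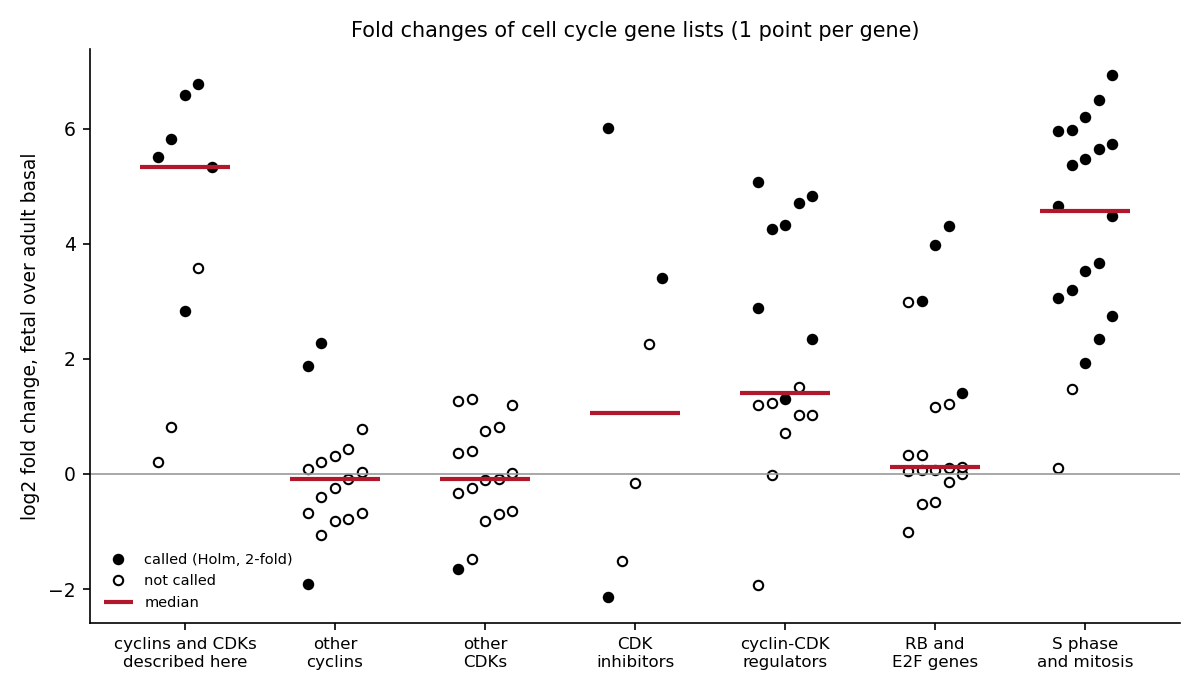
Log2 fold change of fetal over adult basal cells (vertical axis) for the tested genes of each list, 1 point per gene by its main probe, filled where called, with list medians in red. The medians are 5.34 for the cyclins and CDKs described here, -0.09 for other cyclins and for other CDKs, 1.05 for CDK inhibitors, 1.41 for cyclin-CDK regulators, 0.12 for RB and E2F genes and 4.57 for S phase and mitosis genes.

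Genes whose signal followed each member most closely over the 6 arrays were sought among 19771 probes well above background on all arrays. Because the 6 points fall into the study's 2 groups, Pearson's r here mostly reports that a gene differed between them, and it is given as a description. Cdk1 was followed by Cenpi, Zwilch and Ndc80 (r = 0.9999, 0.9998 and 0.9997), all of which encode kinetochore proteins. Ccna2 was followed by Kif22, Cdca3 and Cenph (0.9998, 0.9998 and 0.9997) and Ccnb1 by Cdca3, Cenpa and Pole (0.9998 for each). Ccne1 had Snrpn, Syngr1 and Galnt12 (0.9996 to 0.9999), and Ccnb2 had Arhgap11a, Prickle1 and Heph (0.9995 to 1.000). An r of at least 0.99 was reached by 495 genes with Cdk1 and by 1042 with Ccnd1, but by 13 with Ccnd2 and by 0 with Ccnd3.

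Markers of cell type were read on the same arrays beside these results. Of 6 basal markers, 4 were higher in adult basal cells, among them Myh11 (-8.63), Acta2 (-4.07) and Oxtr (-3.96), genes of the contractile basal cell, while Krt14 was not called. Probes of Trp63 disagreed, with -0.08 on the main probe, which was not called, and -3.06 (SE 0.10) on the other, which was called. The medians of the basal list were 15.01, 14.62 and 15.27 on the adult basal arrays and 13.38, 13.06 and 13.27 on the fetal arrays. Of 7 luminal markers, 2 were higher in fetal cells, the alveolar factor Elf5 (7.55, SE 0.16) and the progenitor receptor Kit, and none in adult basal cells (0 with limma and Holm adjustment). With Benjamini-Hochberg adjustment 2 were higher in adult basal cells, Esr1 (-3.58), which encodes an estrogen receptor, and Krt19 (-1.22), a simple epithelial keratin. The Esr1 probe was well above background on 1 of the 3 fetal arrays, and the means of the groups differed by -1.06 and -1.58 on the other Esr1 probes, which the low-signal filter removed from the test. The receptor gene Prlr had -0.35 on its main probe, which was not called, and 1.85 (SE 0.13) on its other probe, which was called. By their main probes, fetal arrays lay above adult basal arrays for 4 of the 7, against 34.1% of all tested probes. They lay below them for 3, and the share of all tested probes below was not counted. The list medians were 10.66, 10.68 and 10.63 on the adult basal and 11.87, 12.07 and 11.61 on the fetal arrays. Epcam, which the gate used, was higher in fetal cells (1.88). Of 7 fibroblast markers, 2 were lower in fetal cells, Pdgfrb (-4.34) and Dcn (-3.78), with list medians of 9.77, 9.97 and 10.74 in adult basal and 9.19, 9.54 and 9.78 in fetal cells. None of 6 leukocyte markers and none of 4 endothelial markers tested was called (0 each with limma and Holm adjustment, 1 and 2 lower in fetal cells with Benjamini-Hochberg). The part of these differences in cell type in the cyclin and CDK signals was not tested.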

How the data were processed

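RNA of 3 fetal and 3 adult basal samples, grouped by their labels, was measured on Agilent SurePrint G3 Mouse GE arrays with 1 dye. The authors processed the scans with Feature Extraction 11.0.1.1, and the deposited intensity of a spot is its background-subtracted signal. The authors also deposited log2 values that they quantile normalized in GeneSpring, used here as an alternative. The labels name the Low Input Quick Amp kit for labelling, and the methods a whole-transcript version of it.

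Here, control spots and outlier spots (104 to 326 per array) were left out, log2 values of the spots of a probe were averaged, and arrays were quantile normalized. The files give no gene symbols, so 27235 of 55681 probes (48.9%) were named through their accessions in a RefSeq table (GRCm38.p6, while the array design names mm9). Probes in the lowest of 3 k-means clusters (100 starts, cutoff 5.95 log2) in both groups were removed, which left 20448. Linear models with moderated variances (lmFit, then eBayes) came from limma 3.58.1 (R 4.3.3). Tables and plots used Python 3.11.15, pandas 2.3.3, numpy 2.4.6, scipy 1.17.1 and matplotlib 3.10.9. The fit was tested on simulated data.

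Precision is limited by the number of arrays. The share of probes well above background ranged from 76.4% to 83.3%, and 0 spots were saturated. Arrays correlated at 0.994 to 0.995 within the fetal group, 0.981 to 0.990 within the adult basal group and 0.832 to 0.853 between the groups.

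Members and gene lists were chosen with earlier results of these data known. Beside the 10 members, the text names in each list up to 3 called genes with the largest changes among those well above background on all arrays, some fixed genes (Cdk2, Cdk4, Cdkn1a, Cdkn1b, Cdkn1c, Cdkn2a, Rb1, E2f1, Mki67 and Pcna), and the 3 genes most like each member (given for Cdk1, Ccna2, Ccnb1, Ccnb2 and Ccne1, and not reported here for the others). Outside this rule, E2f7, Foxm1, Mybl2, Tfdp2, Krt14, Trp63, Krt19, Esr1 and Prlr were named after their values were seen. Alternatives were 75th percentile normalization, the deposited log2 values, a normexp correction (offset 50), no low-signal filter or one on background, all probes, Benjamini-Hochberg adjustment, a variance trend with robust estimation, an offset of 16, each array left out, replicate and slide blocks, values within slides, and averaging over all probes of a gene.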

Additional observations from a re-analysis of the deposited data

How the results depend on the processing

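The count of called probes, 2270 of all tested, moved most: 1182 without the low-signal filter, 6133 with Benjamini-Hochberg adjustment, and 948 to 1949 with 1 array left out. The causes were not tested, except that Benjamini-Hochberg adjustment is by construction less strict. Of the cyclins and CDKs, 6 were called higher in fetal cells. This count was 4 without the filter and without adult basal replicate 3 or any 1 fetal array, 5 with a variance trend and robust estimation, 7 with Benjamini-Hochberg adjustment, with an offset of 16 and without adult basal replicate 2, and 6 in the other alternatives. None was called higher in adult basal cells under any alternative run, and no log2 fold change of a main probe changed sign. With replicate number as a block, 1302 probes and 6 of these genes were called. Samples of the same number showed no sign of deviating together, with correlations of -0.03, 0.09 and 0.05. Pairs of different number gave -0.13 to 0.12. With so few arrays these values cannot settle whether the numbers pair the samples. Cdk6 and Ccne2 were near background, which limits their fold changes, and under the normexp correction Cdk6 fell under the low-signal limit and gave no value.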
